A study of Mus musculus with 81 samples.

Results

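Gene expression in CA1 pyramidal neurons (PNs) was compared between trisomic Ts65Dn mice (Ts) and disomic mice (2N) whose dams had eaten a choline-supplemented diet. The comparison rests on the 16 CA1 libraries, of 81 libraries in the whole series, whose labels give the choline-supplemented diet (ChP): 9 Ts and 7 2N, each from 1 mouse, with mice numbered within a group. Breeders were Ts65Dn females and C57Bl/6J Eicher × C3H/HeSnJ F1 males, so both genotypes came from the same mixed background. Dams received 5.0 g/kg choline chloride, against 1.1 g/kg in the normal diet (ChN) used for comparison, and all offspring ate the normal diet from weaning. The study's methods give male sex and an age of about 6 months for its normal-diet mice, the labels give 6 months here, and Ddx3y, a gene of the Y chromosome, lay between 34.4 and 60.8 counts per 1000000 (CPM, scaled with TMM factors) in every one of the 16 libraries. Nissl-stained CA1 PNs were picked by eye in frozen sections, cut out by laser capture microdissection (LCM) and pooled within a mouse before RNA-seq, so each value is an average over many captured neurons and whatever touched them.

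In the Ts65Dn model an additional small chromosome is inherited, made from the end of mouse chromosome 16 (Mmu16), many of whose genes have counterparts on human chromosome 21, joined to the start of mouse chromosome 17 (Mmu17), whose genes do not. Genes in both stretches are present in an additional copy, so the model mixes Down syndrome dosage with dosage of unrelated genes. CA1 PNs are the excitatory output neurons of the hippocampus and are needed for spatial and episodic memory, and choline is a precursor of acetylcholine, of phosphatidylcholine and of the methyl groups passed on through betaine.

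Before the genotypes were compared, the captured cells were checked against marker genes of the hippocampal fields, because CA2 is a narrow field next to CA1 that also holds pyramidal neurons. The mean log2 CPM of the CA2 markers separated the 16 libraries into 9 between 1.96 and 3.52 and 7 between 5.93 and 8.17. The 7 libraries with high CA2 markers came from both genotypes, 4 of 9 Ts and 3 of 7 2N, and their CA3 marker mean was also higher, from 4.88 to 7.05 against 1.87 to 3.73 in the other 9. In 2 of the 7, from Ts mouse 8 and 2N mouse 5, the CA1 markers themselves were low, with means of 2.51 and 4.75 log2 CPM against 6.07 to 7.70 in the remaining 14. Wfs1, a CA1 marker that encodes an endoplasmic reticulum protein, stood at 9.18 CPM in the library of Ts mouse 8 and 45.4 CPM in that of 2N mouse 5, against 145 to 729 CPM elsewhere. The library of Ts mouse 8, labelled CA1, therefore went against its label on the markers. That of 2N mouse 5 did so less strongly on the CA1 markers, and it had the highest CA2 mean of the 16, 8.17 log2 CPM. The main counts were repeated with the CA2 marker mean as a covariate, without these 2 mice, and in the 9 low-CA2 libraries. These alternatives were chosen after the data were seen. Genotype groups did not differ detectably in the marker means, with exact two-sided permutation p = 0.878 for CA1, 0.756 for CA2 and 0.656 for CA3 over 11440 arrangements of the 16 libraries (BH adjusted p = 0.878 for each, 7 library measures tested).

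**Figure D1:**
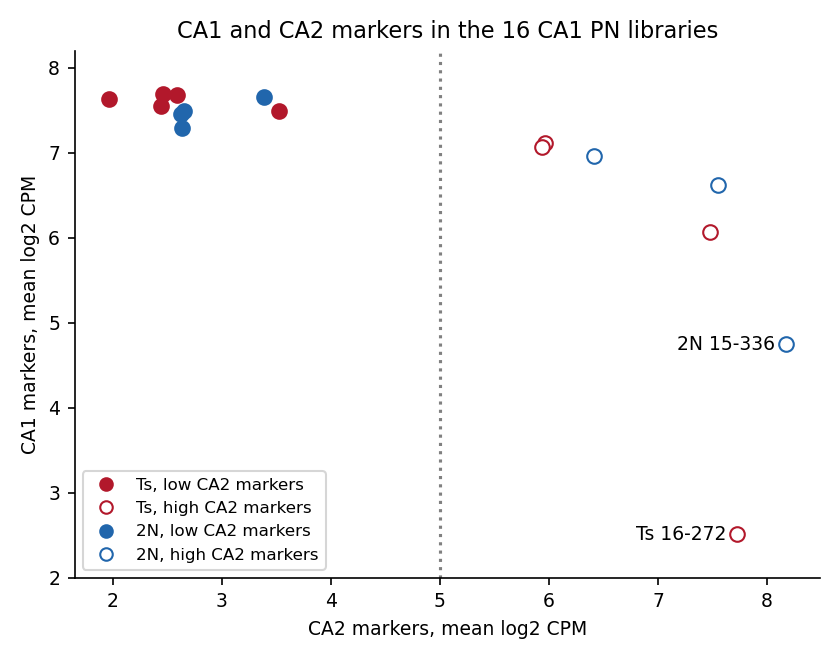
Mean log2 CPM of the CA2 markers (x axis) against that of the CA1 markers (y axis), 1 point per library, Ts in red and 2N in blue, with open points for the 7 libraries above a CA2 mean of 5 (dotted line). Both genotypes lie on each side of the line, and the libraries of Ts mouse 8 and 2N mouse 5 sit lowest, at CA1 means of 2.51 and 4.75.

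Library totals ran from 645483 to 1918846 assigned expected counts across Ts (median 1274304), against 648202 to 1242479 across 2N (median 861513), a difference that did not pass the exact permutation test (p = 0.0601, adjusted p = 0.210). Genes with a count numbered 14540 to 17289 across Ts (median 16151), against 14218 to 16118 across 2N (median 15037). The exact permutation test gave p = 0.0337 for them, with adjusted p = 0.210. By library total 1 read was worth between 0.521 and 1.55 CPM, so genes of a few CPM rest on a handful of reads. Of 14300 genes tested with edgeR's quasi-likelihood test, 515 (3.60%) differed between Ts and 2N at an unadjusted p under 0.05, which is the threshold the study uses for a differentially expressed gene (DEG) and which also passes about 1 in 20 genes when nothing differs. On that threshold 306 genes were higher and 209 lower in Ts, and 7 genes (0.0490%) passed after Benjamini-Hochberg (BH) adjustment, all of them higher and all triplicated. The split of directions depended on how libraries were scaled: 306 higher and 209 lower with TMM factors became 208 and 307 with library totals, where 6 genes (0.0420%) passed adjustment, and 267 and 267 with DESeq2 size factors, while the median log2 fold change (LFC) of all genes moved from 0.02 to -0.03 and -0.01. Most differences were modest, with an absolute LFC under 1 for 391 of the 515 DEGs, and 449 were protein-coding. DESeq2 called 462 genes (3.23%) and 18 after adjustment (0.126%), and limma-voom called 599 (4.19%) and 7 (0.0490%). Each mouse gave 1 library, so p-values measure the spread between mice.

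The triplicated Mmu16 genes were higher in Ts almost throughout. Their summed counts took 0.861 to 1.09% of all counts in the 9 Ts libraries and 0.664 to 0.741% in the 7 2N libraries, so the genotype groups did not overlap, whether a library was high in CA2 markers or not. The mean log2 CPM of the list ran from 5.25 to 5.56 in Ts and from 4.77 to 5.11 in 2N, again without overlap. Of 68 genes on the study's Mmu16 list, 66 were expressed highly enough to be tested (Clic6 and Sh3bgr were not), and 42 of the 66 were higher in Ts at an unadjusted p under 0.05 against 2.14% of all genes tested, none was lower, and 6 passed adjustment. The list's median LFC was 0.47, against 0.02 over all genes, 62 of 66 estimates lay above 0, and for 8 genes every Ts library lay above every 2N library (0.0979% of all genes tested did so). A gene expressed in proportion to its copies would have an LFC of 0.58, which is 1.5-fold, and the 95% confidence interval included that value for 65 of 66 genes and lay below it for the other 1, the inositol transporter gene Slc5a3 (LFC 0.20). With the CA2 covariate 45 of the 66 were called (5.87% of all genes were called there) and without the 2 mice low in CA1 markers 43 (4.55%). In the low-CA2 libraries 44 were called (6.38%) and in the high-CA2 libraries 23 (3.30%). Because each library is a pool of cells scaled to its own total, more RNA per cell and more cells of a type cannot be told apart.

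**Figure D2:**
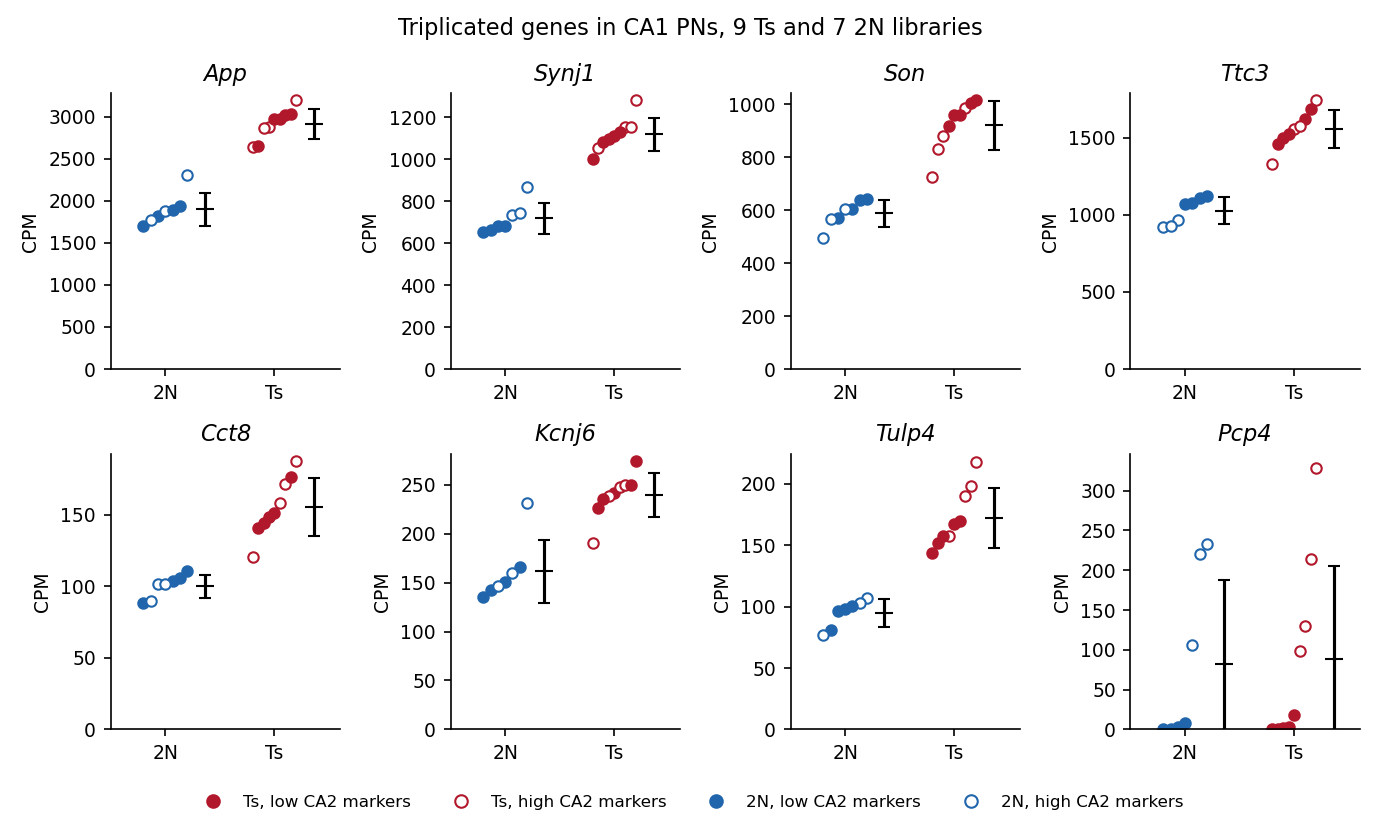
CPM of 8 triplicated genes in each of the 16 libraries (y axis from 0), 2N in blue and Ts in red, with open points for libraries high in CA2 markers and a bar for the mean and SD of each group. App, Synj1, Son, Ttc3, Cct8 and Tulp4 show no overlap between genotypes, Kcnj6 overlaps through 1 2N library at 231 CPM, and Pcp4 is high only in open points, up to 328 CPM.

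Among Mmu16 genes that act at membranes and synapses, App, the precursor of amyloid-β, ranged from 2639.6 to 3202 CPM across Ts (median 2976), against 1698 to 2305 CPM across 2N (median 1874), and all 9 Ts libraries lay above all 7 2N libraries. Its means were 2916 ± 182 CPM (SD, n = 9) in Ts and 1901 ± 196 CPM (SD, n = 7) in 2N, an LFC of 0.62 ± 0.08 (SE) with edgeR adjusted p = 0.000254. App lies at chromosome 16, 84746573-84971126 (GRCm39), and it was the most abundant gene of the list per length, with a median of 575 length-normalised transcripts (TPM). Synj1 encodes the phosphoinositide phosphatase synaptojanin 1, which strips clathrin coats from recycling synaptic vesicles; it ranged from 1000.1 to 1281 CPM across Ts (median 1112), against 654 to 865 CPM across 2N (median 682) with no overlap (LFC 0.64 ± 0.08, edgeR adjusted p = 0.000254). Itsn1, a scaffold of the same endocytic machinery, ranged from 166 to 372 CPM across Ts (median 218), against 113 to 261 CPM across 2N (median 133), and only 3 of 9 Ts libraries exceeded every 2N library (LFC 0.70 ± 0.18, edgeR adjusted p = 0.352). The top of the 2N range of Itsn1 came from 2N mouse 5, at 261 CPM, and with the CA2 covariate the estimate was 0.75 ± 0.10 at an edgeR adjusted p of 3.03e-06. Kcnj6, which encodes the GIRK2 potassium channel that hyperpolarises neurons after GABA-B receptor activation, ranged from 190.5 to 274 CPM across Ts (median 241), against 135 to 231 CPM across 2N (median 151), with 7 of 9 Ts libraries above all 2N libraries (LFC 0.57 ± 0.11, edgeR adjusted p = 0.0389). The overlapping 2N library was again that of 2N mouse 5, at 231 CPM, and leaving out 1 mouse took Kcnj6 past the adjusted threshold for 12 of 16 mice (edgeR adjusted p up to 0.142, without 2N mouse 4). Tiam1, an activator of the small GTPase Rac in spines, did not pass (LFC 0.10 ± 0.24, edgeR adjusted p = 1.0).

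A second set of well-measured Mmu16 genes works in the nucleus or on proteins. Son, a splicing factor of nuclear speckles, ranged from 726 to 1014 CPM across Ts (median 957), against 495 to 641 CPM across 2N (median 602) without overlap (LFC 0.64 ± 0.09, edgeR adjusted p = 0.000338). Ttc3, an E3 ubiquitin ligase, ranged from 1328 to 1746 CPM across Ts (median 1558), against 921 to 1122 CPM across 2N (median 1072) without overlap (LFC 0.60 ± 0.08, edgeR adjusted p = 0.000338). Cct8 encodes a subunit of the cytosolic chaperonin that folds actin and tubulin, and its range was 120.5 to 188 CPM across Ts (median 151), against 88.6 to 110.5 CPM across 2N (median 101) (LFC 0.63 ± 0.10, edgeR adjusted p = 0.00454). These 3 genes and the 3 synaptic genes App, Synj1 and Kcnj6 were the 6 on Mmu16 that passed adjustment, with estimates within a narrow band from 0.57 to 0.64. Just outside the adjusted threshold, Gart, a trifunctional enzyme of purine synthesis, had no overlap, with 32.7 to 50.8 CPM across Ts (median 40.0), against 14.8 to 29.3 CPM across 2N (median 23.3) (LFC 0.78 ± 0.15, edgeR adjusted p = 0.0513). Brwd1, a bromodomain protein that binds acetylated histones, had an LFC of 0.63 ± 0.12 (edgeR adjusted p = 0.0522), and 8 of 9 Ts libraries exceeded all 2N libraries. Sod1, the cytosolic superoxide dismutase, ranged from 95.8 to 173 CPM across Ts (median 119.7), against 63.8 to 101 CPM across 2N (median 82.7) (LFC 0.64 ± 0.13, edgeR adjusted p = 0.0522). With the CA2 covariate all of Gart, Brwd1 and Sod1 passed, with edgeR adjusted p = 0.00766, adjusted p = 2.03e-05 and adjusted p = 0.00295.

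Dyrk1a and Rcan1, a kinase and a calcineurin inhibitor that both restrain NFAT signalling, were DEGs without passing adjustment. Dyrk1a ranged from 138 to 203 CPM across Ts (median 163), against 108 to 147 CPM across 2N (median 120.0), with 8 of 9 Ts libraries above all 2N libraries (LFC 0.46 ± 0.10, edgeR adjusted p = 0.106, and 0.0113 with the CA2 covariate). Rcan1 ranged from 46 to 79.5 CPM across Ts (median 62.9), against 25.8 to 63.5 CPM across 2N (median 41.8), with 4 of 9 Ts libraries above all 2N libraries (LFC 0.48 ± 0.16, edgeR adjusted p = 0.943). The 4 genes of the interferon and interleukin receptor cluster of Mmu16 were higher at an unadjusted p under 0.05, as were 63.6% of all tested Mmu16 genes. None passed adjustment in edgeR: Ifnar1 with an LFC of 0.35 ± 0.14, Ifnar2 0.58 ± 0.21, Ifngr2 0.50 ± 0.16 and Il10rb 1.83 ± 0.64. Il10rb was the highest estimate of the list, on a median of 1.44 TPM only. Genes for mitochondrial proteins gave 3 DEGs of 4, beside the 63.6% of the whole tested Mmu16 list. The 3 had LFCs of 0.89 ± 0.23 for Mrps6, 0.53 ± 0.16 for Atp5po and 0.47 ± 0.17 for Atp5pf, while Mrpl39 had 0.39 ± 0.20 (edgeR adjusted p = 1.0). Chromatin genes beside Brwd1 included Hmgn1, a nucleosome-binding protein, at 0.70 ± 0.21 (edgeR adjusted p = 0.742) and Morc3, an ATPase of nuclear bodies, at 0.47 ± 0.16 (edgeR adjusted p = 0.943). Ets2, a transcription factor, had an LFC of 0.36 ± 0.11 and Usp16, a deubiquitinase of histone H2A, 0.68 ± 0.15, both at an unadjusted p under 0.05. Of the 55 DEGs on both lists, 50 kept an unadjusted p under 0.05 whichever single mouse was left out; Ifnar1 lost it without 2N mouse 2 (LFC 0.29 to 0.41 over all omissions), and Gabpa, Mpc1, Serac1 and Tmem181a lost it without 1 to 5 mice. These receptor, mitochondrial and chromatin genes were grouped by function after their values had been seen.

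Pcp4, Grik1 and Lca5l were the Mmu16 genes with the largest p-values. Pcp4, a small calmodulin-binding protein that is also a CA2 marker, ranged from 0 to 328 CPM across Ts (median 18), against 0 to 234 CPM across 2N (median 7.89), and its high values came from libraries high in CA2 markers (LFC 0.13 ± 1.19, edgeR adjusted p = 1.0). Grik1, the kainate receptor subunit GluK1 that is typical of interneurons, was near the limit of detection, from 1.5 to 6.48 CPM across Ts (median 2.87), against 0 to 6.75 CPM across 2N (median 2.46) (LFC 0.03 ± 0.45, edgeR adjusted p = 1.0). Lca5l, a paralogue of the ciliary protein lebercilin, likewise ranged from 0 to 3.6 CPM across Ts (median 0.781), against 0 to 3.38 CPM across 2N (median 1.23) (LFC -0.07 ± 0.66, edgeR adjusted p = 1.0). The widths of these intervals do not separate an unchanged level from a 1.5-fold one. The share of called genes ran with their level across both stretches. Among the 31 of 91 tested triplicated genes with the lowest level (0.375 to 7.33 TPM) 6 were DEGs, with a median LFC of 0.37 and a median SE of 0.39. Among the 30 of intermediate level (7.36 to 19.5 TPM) 20 were DEGs, with a median LFC of 0.47 and a median SE of 0.21. Among the 30 of the highest level (20.1 to 575 TPM) 29 were DEGs, including all 7 that passed adjustment, with a median LFC of 0.58 and a median SE of 0.13.

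The Mmu17 stretch, which is not orthologous to human chromosome 21, moved in the same way. Its list took a mean log2 CPM of 4.43 to 4.71 in Ts and 3.88 to 4.14 in 2N, without overlap. Of 27 listed genes 25 were tested (Dynlt1a and Fbl-ps2 were not). At an unadjusted p under 0.05, 13 were higher, against 2.14% of all genes tested, and none was lower. Of the 25, 1 passed adjustment, 24 estimates lay above 0, and the median LFC was 0.48. The called count was 16 with the CA2 covariate (5.87% of all genes were called there) and 14 without the 2 mice low in CA1 markers (4.55%). It was 12 in the low-CA2 (6.38%) and 11 in the high-CA2 libraries (3.30%). Tulp4, a member of the tubby-like protein family, ranged from 144 to 217 CPM across Ts (median 167), against 77.3 to 107 CPM across 2N (median 97.9) without overlap, and its means were 172 ± 24.3 CPM (SD, n = 9) in Ts and 94.8 ± 11.2 CPM (SD, n = 7) in 2N. Its LFC of 0.86 ± 0.11 (edgeR adjusted p = 0.000254) was the only one on either list whose 95% confidence interval, 0.64 to 1.09, lay above 1.5-fold. Gtf2h5, a subunit of the transcription and repair factor TFIIH, ranged from 45.3 to 73.7 CPM across Ts (median 61.1), against 24.8 to 44.4 CPM across 2N (median 41.4), also without overlap (LFC 0.64 ± 0.14, edgeR adjusted p = 0.0991). Synj2, the paralogue of Synj1, had an LFC of 0.59 ± 0.13 (edgeR adjusted p = 0.0913) and Scaf8, a protein that binds the tail of RNA polymerase II, 0.58 ± 0.13 (edgeR adjusted p = 0.0913), and in both genes 8 of 9 Ts libraries exceeded all 2N libraries. Arid1b, a subunit of BAF chromatin remodelling complexes, had 0.42 ± 0.10 (edgeR adjusted p = 0.155), and the phosphodiesterase gene Pde10a had 0.62 ± 0.15 (edgeR adjusted p = 0.236). The remaining named DEGs were Zdhhc14, a palmitoyltransferase, at 0.78 ± 0.21 and Rps6ka2, a ribosomal S6 kinase, at 0.75 ± 0.21, neither of which passed edgeR's adjustment. Tiam2, Sft2d1 and Rsph3b had the largest p-values, with LFCs of 0.45 ± 0.92, 0.20 ± 0.36 and 0.01 ± 0.59. Tiam2, an activator of Rac, was high where CA2 markers were high, and with the CA2 covariate its LFC was 0.86 ± 0.19 (edgeR adjusted p = 0.0312). Several Mmu17 genes have near-identical copies among which RSEM shares reads (Tmem181a, Rsph3a and Rsph3b, Tagap1 and Gm1604a), and on Mmu16 the same holds for Cbr1 and Cbr3, so their values are uncertain.

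Placed in gene order, most of the DEGs higher in Ts on chromosomes 16 and 17 lay in the 2 stretches. Over all genes tested 2.14% were higher and 1.46% lower at an unadjusted p under 0.05. In the Mmu16 stretch as annotated in GRCm39, chromosome 16 from 84502276 to 97883698, 43 of 72 tested genes were higher and none lower, with a median LFC of 0.46. The 20 tested genes next to it on the centromere side had a median of 0.003, with 0 higher and 1 lower at an unadjusted p under 0.05, and among all 385 other tested genes of chromosome 16 there were 4 higher and 6 lower. In the Mmu17 stretch, chromosome 17 from 3165186 to 9205482, 15 of 32 tested genes were higher and none lower (median 0.53), and the 20 genes on the telomere side had a median of -0.03 with no DEG. On the centromere side of Mmu17 only 3 genes were tested, with a median of 0.68, all 3 above 0 and 1 DEG, Gm21926, a predicted gene. These 3 genes were counted as outside the stretches, and whether they are triplicated was not tested. Beyond the telomere side of the Mmu16 stretch no gene was tested. The rest of chromosome 17 gave 12 higher and 4 lower of 620, with a median of 0.01.

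**Figure D3:**
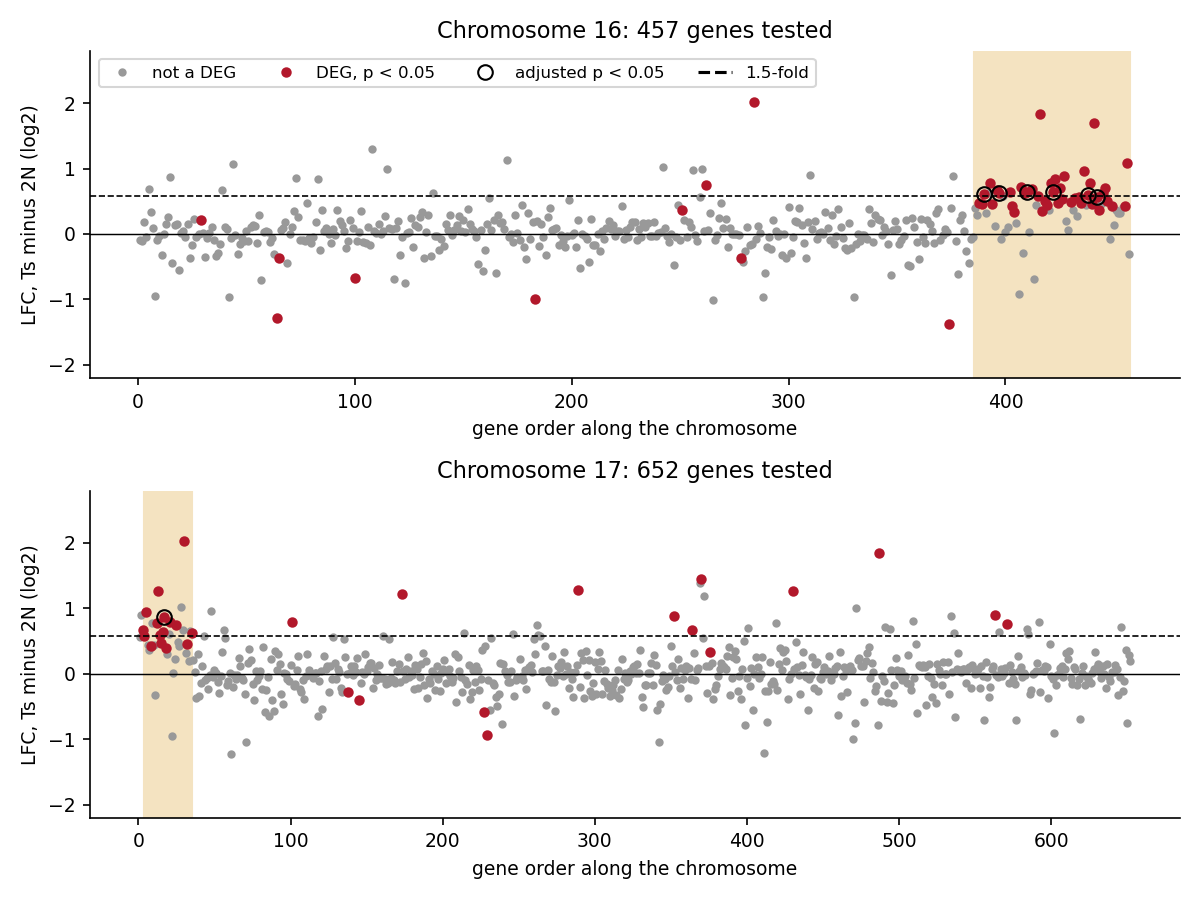
LFC of Ts minus 2N (y axis, log2) of the tested genes of chromosome 16 (457 genes) and chromosome 17 (652 genes), placed in gene order (x axis), with DEGs in red, genes past adjustment circled, the triplicated stretches shaded and a dashed line at 1.5-fold. In the shaded stretches most points lie above 0, around medians of 0.46 and 0.53. Outside them the points scatter around 0, except that the 3 genes before the Mmu17 stretch all lie above 0.

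Outside the triplicated stretches 457 of 14196 tested genes (3.22%) were DEGs, 248 higher and 209 lower. None passed edgeR's adjustment (limma-voom 0, DESeq2 1, the small nuclear RNA gene Gm22042). The share was no larger than the 4.4% of unchanged genes that had an unadjusted p under 0.05 in simulated counts. The number of DEGs outside the stretches therefore does not by itself set them apart from chance calls. With library totals in place of TMM the directions were 151 higher and 307 lower. In 4 of these genes every Ts library lay above every 2N library (0.0979% of all genes, triplicated ones included), and in 2, Sap130, a subunit of a histone deacetylase complex, and the predicted gene Gm47659, every Ts library lay below (0.0140% of all genes). Rreb1, a zinc finger transcription factor of the Ras pathway, ranged from 17.1 to 52.5 CPM across Ts (median 25.3), against 9.14 to 20.7 CPM across 2N (median 15.8), with 7 of 9 Ts libraries above all 2N libraries (LFC 1.02 ± 0.25, edgeR adjusted p = 0.238). Car4, a membrane-anchored carbonic anhydrase that buffers extracellular pH, ranged from 4.26 to 21.9 CPM across Ts (median 11.5), against 0 to 7.37 CPM across 2N (median 4.56), with 7 of 9 above (LFC 1.6 ± 0.40, edgeR adjusted p = 0.279). In each of these genes 2 Ts libraries fell within the 2N range. Sp1, a widely expressed transcription factor, ranged from 21.4 to 33 CPM across Ts (median 23.6), against 9.82 to 21.4 CPM across 2N (median 15.9) (LFC 0.72 ± 0.19, edgeR adjusted p = 0.351). Pak4, a p21-activated kinase that acts on the cytoskeleton, ranged from 3.72 to 10.5 CPM across Ts (median 7.03), against 2.25 to 3.42 CPM across 2N (median 2.49) (LFC 1.30 ± 0.34, edgeR adjusted p = 0.323), and Aopep, an aminopeptidase, from 42.7 to 66 CPM across Ts (median 47.8), against 28.1 to 40.6 CPM across 2N (median 36.8) (LFC 0.49 ± 0.13, edgeR adjusted p = 0.351). Sp1, Pak4 and Aopep were 3 of the 4 genes without overlap, and the fourth was Srebf2, described with the cholesterol genes. The gap was narrow in Sp1 (lowest Ts 21.4206, highest 2N 21.4168 CPM) and Srebf2 (205.5 and 204.0 CPM), where 1 read was worth 0.521 to 1.55 CPM. Csdc2, an RNA-binding cold shock protein, had an LFC of 0.86 ± 0.23, Ppp1r26, a regulatory subunit of protein phosphatase 1, 1.21 ± 0.32, and Terf1, a telomere-binding protein, 1.26 ± 0.35. Dok5, an adaptor of receptor tyrosine kinases, had 1.73 ± 0.47 and Kremen1, a receptor for the Wnt inhibitor Dickkopf, 1.31 ± 0.39, both from levels of a few CPM.

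The 10 named genes lower in Ts outside the stretches included enzymes and regulators of growth signals. Lrig1, a brake on receptors of the EGF family, ranged from 12.5 to 26.5 CPM across Ts (median 18), against 18 to 56.5 CPM across 2N (median 29.3), with 5 of 9 Ts libraries below all 2N libraries (LFC -0.79 ± 0.20, edgeR adjusted p = 0.288). Mtrr, methionine synthase reductase, which keeps the folate-dependent route to methionine active, ranged from 5.33 to 13.5 CPM across Ts (median 10.1), against 7.37 to 27.1 CPM across 2N (median 19.9), with 1 of 9 below (LFC -0.91 ± 0.24, edgeR adjusted p = 0.351). The lowest 2N value of Mtrr, 7.37 CPM, was that of 2N mouse 5, and the other 6 2N libraries started at 15.8 CPM. Gaa, the lysosomal acid α-glucosidase, ranged from 219.8 to 330.3 CPM across Ts (median 267), against 302 to 437 CPM across 2N (median 330.3), with 6 of 9 below (LFC -0.36 ± 0.11). Chst1, a sulfotransferase of keratan sulfate, ranged from 211 to 275 CPM across Ts (median 246), against 255 to 387 CPM across 2N (median 290.4), with 7 of 9 below (LFC -0.33 ± 0.10). Both were abundant, with edgeR adjusted p = 0.742 for Gaa and adjusted p = 0.772 for Chst1. Necab1, a neuronal calcium-binding protein, ranged from 5.74 to 27 CPM across Ts (median 12.4), against 14.7 to 63.5 CPM across 2N (median 21.4), with 7 of 9 below, and its highest 2N value came from 2N mouse 3 alone (LFC -1.0 ± 0.31). Rfx5, a transcription factor of MHC class II genes, had an LFC of -1.24 ± 0.33, the Golgi protein gene Golph3l -0.69 ± 0.21, the zinc finger gene Zfp458 -0.63 ± 0.19 and Sesn3, a stress-responsive sestrin, -0.52 ± 0.17. Gja1, the astrocyte gap junction protein connexin 43, had -0.58 ± 0.17, and summed astrocyte markers ran from 153 to 278 CPM in Ts and from 207 to 252 CPM in 2N.

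**Figure D4:**
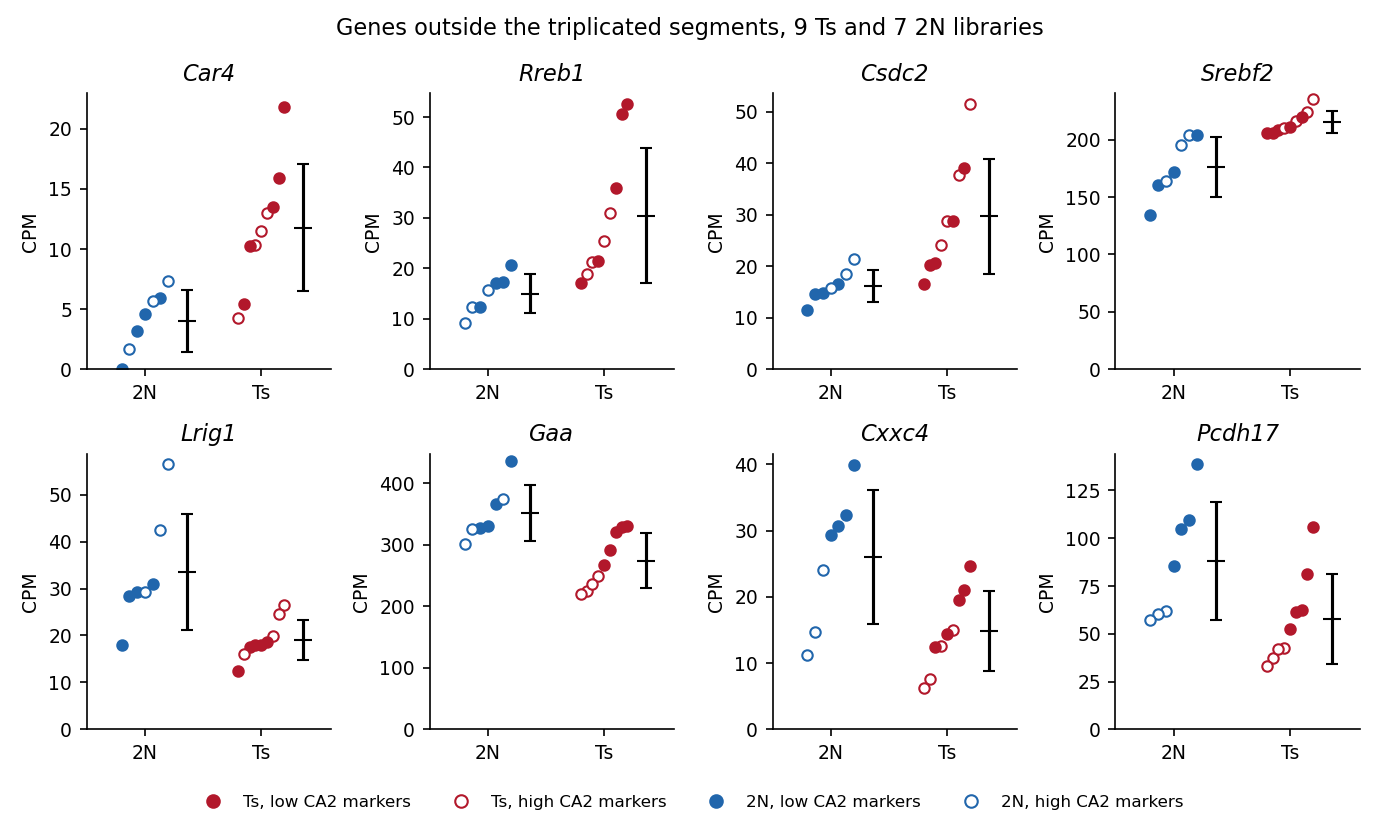
CPM of 8 genes outside the triplicated stretches in each of the 16 libraries (y axis from 0), 2N in blue and Ts in red, with open points for libraries high in CA2 markers and a bar for the mean and SD of each group. Srebf2 shows no overlap, Car4, Rreb1 and Csdc2 overlap in their lower Ts values, and in Pcdh17 the open points are the lower ones within each genotype.

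When the CA2 marker mean was a covariate, more genes were called. DEGs rose from 515 to 839 (5.87% of 14300), of which 488 were shared with the analysis without it, that is 94.8% of the 515 and 58.2% of the 839, and none of the 515 turned its sign. Adjusted calls went from 7 to 34 (0.238%), including the same 7, with 18 on the Mmu16 list, 8 on the Mmu17 list and 8 outside the stretches. With this covariate 3 of 4 tested CA3 markers were also higher, and their part in the result was not tested. Those 8 outside were Rreb1 (LFC 1.0 ± 0.22, adjusted p = 0.0250), Car4 (1.61 ± 0.37, 0.0435) and Csdc2 (0.87 ± 0.21, 0.0440), which were higher, and Lrig1 (-0.75 ± 0.17, 0.0342), Gaa (-0.39 ± 0.09, 0.0234), Cxxc4 (-0.89 ± 0.20, 0.0312), Pcdh17 (-0.67 ± 0.12, 0.00266) and the small nuclear RNA gene Gm22042 (-1.05 ± 0.18, 0.000874), which were lower, all by edgeR. Pcdh17, a protocadherin of synaptic adhesion, ranged from 33.3 to 106 CPM across Ts (median 52.5), against 57.3 to 139 CPM across 2N (median 85.4), and Cxxc4, an inhibitor of Wnt signalling, from 6.31 to 24.7 CPM across Ts (median 14.4), against 11.3 to 39.9 CPM across 2N (median 29.3). Without the covariate their LFCs were -0.61 ± 0.25 (edgeR adjusted p = 1.0) and -0.83 ± 0.27 (edgeR adjusted p = 0.943), and omission of 1 mouse ended the unadjusted call of Pcdh17 for 4 of 16 (LFC -0.48 to -0.56 without them, the largest p without 2N mouse 3). In the 9 low-CA2 libraries alone (5 Ts and 4 2N), 913 genes were DEGs (6.38%) and 31 (0.217%) passed adjustment, 8 of them outside the stretches. Among those 8 were Car4 (LFC 2.03 ± 0.47), Nr4a3 (0.54 ± 0.11), the clock gene Per1 (0.61 ± 0.14), Zmat4 (-0.73 ± 0.17), Wfs1 (-0.51 ± 0.09), Dach1 (-1.34 ± 0.29) and the 7S RNA gene Rn7s6 (0.80 ± 0.15). Car4 was the one gene outside the stretches that passed in both. In the 7 high-CA2 libraries alone no gene passed adjustment in edgeR and 472 (3.30%) had an unadjusted p under 0.05. Without Ts mouse 8 and 2N mouse 5 there were 623 DEGs (4.55%) and 20 adjusted calls (0.146%), 1 of them outside, Gm22042.

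Among 30 lists of functional genes, cholesterol synthesis and uptake had the most members higher in Ts for its size. Of 26 tested genes 6 were higher and none lower at an unadjusted p under 0.05 (2.14% and 1.46% of all genes), the median LFC was 0.31 against 0.02 over all genes, and 21 of 26 lay above 0. Srebf2, the transcription factor that turns on sterol synthesis genes, ranged from 206 to 235 CPM across Ts (median 211), against 134 to 204 CPM across 2N (median 172) without overlap (LFC 0.29 ± 0.09, edgeR adjusted p = 0.943). Msmo1, a sterol methyl oxidase, ranged from 28.5 to 47.7 CPM across Ts (median 33.5), against 10.3 to 30.7 CPM across 2N (median 25.1) (LFC 0.61 ± 0.19, edgeR adjusted p = 0.792). Fdft1, squalene synthase, the first committed step to sterols, ranged from 31.6 to 51.3 CPM across Ts (median 45.3), against 25.1 to 39.3 CPM across 2N (median 33.8) (LFC 0.44 ± 0.15, edgeR adjusted p = 0.943). In both Msmo1 and Fdft1, 6 of 9 Ts libraries lay above all 2N libraries. Stard4, a cytosolic sterol carrier, had an LFC of 0.95 ± 0.39 at an unadjusted p under 0.05, and omitting 1 mouse ended the call of Stard4 for 1 of 16 (LFC 0.75 without 2N mouse 2). No member passed adjustment over all genes in the 16 libraries, and 1 did in the low-CA2 libraries, where 5 were higher (6.38% of all genes were DEGs there). Of the 26, 5 were DEGs with library totals (3.60% of all genes) and with DESeq2 (3.23%). There were 9 with the CA2 covariate (5.87%) and 7 without the 2 mice low in CA1 markers (4.55%). In the high-CA2 libraries 2 were higher and 1 lower (3.30%). Oligodendrocytes make much sterol, and the summed oligodendrocyte markers ran from 100.5 to 312 CPM in Ts and from 102 to 255 CPM in 2N, with 0 of 6 markers called (1 with the CA2 covariate); their part in the result was not tested.

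Sterol-responsive promoters carry a sterol regulatory element, to which SREBF proteins bind, so the core letters TCACCCCA were searched on both strands of RefSeq promoter windows (GRCm38.p6, from 250 bases before to 50 after a start), a search chosen after the values had been seen. Of the 26 tested cholesterol genes 19 matched by symbol, with 27 windows, and 2 of these windows held the letters, those of Srebf2 and of Hmgcs1, the cytosolic HMG-CoA synthase, where 1.56% of all 32851 windows held them. Hmgcs1 stood at 136 ± 36 CPM (SD, n = 9) in Ts and 109 ± 24 CPM (SD, n = 7) in 2N, an LFC of 0.32 ± 0.16 that was no DEG. The 250 bases before each start are given 5′ to 3′ with the matched letters in capitals, as a description of these windows and not of binding.
Srebf2, chr15:82147019-82147268, plus strand: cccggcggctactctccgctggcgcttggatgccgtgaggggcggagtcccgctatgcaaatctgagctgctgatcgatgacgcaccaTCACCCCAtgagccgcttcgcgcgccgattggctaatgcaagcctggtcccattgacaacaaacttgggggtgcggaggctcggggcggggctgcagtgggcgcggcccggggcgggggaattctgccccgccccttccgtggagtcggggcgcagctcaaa
Hmgcs1, chr13:119690101-119690350, plus strand: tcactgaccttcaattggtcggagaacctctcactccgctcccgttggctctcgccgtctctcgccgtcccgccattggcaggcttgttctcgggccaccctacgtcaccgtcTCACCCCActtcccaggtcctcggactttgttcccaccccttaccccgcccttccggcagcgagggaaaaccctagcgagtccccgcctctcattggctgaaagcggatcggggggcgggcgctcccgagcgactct

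Immediate early genes, which follow neuronal activity, gave 3 higher of 19 tested and none lower, with a median LFC of 0.36. Over all genes tested 2.14% were higher and 1.46% lower. Nr4a3, an orphan nuclear receptor, ranged from 221 to 338 CPM across Ts (median 294), against 166 to 299 CPM across 2N (median 204) (LFC 0.41 ± 0.13, edgeR adjusted p = 0.792). Egr4, a zinc finger transcription factor, had an LFC of 0.56 ± 0.26 and Bdnf, the neurotrophin, 0.36 ± 0.16, which was also the 1 DEG of 9 neurotrophin and receptor genes. With library totals 1 of the 19 was a DEG (3.60% of all genes). Counts were 5 higher and 1 lower in the low-CA2 libraries (6.38% of all genes were DEGs there) and 4 and 1 without the 2 mice low in CA1 markers (4.55%). They were 3 and 0 with the CA2 covariate (5.87%) and 0 in the high-CA2 libraries (3.30%). By gene, leaving out 1 mouse ended the call of Egr4 for 10 of 16 (LFC 0.45 to 0.60 without them, the largest p without 2N mouse 7) and of Bdnf for 8 of 16 (LFC 0.27 to 0.35 without them, the largest p without 2N mouse 1). Extracellular matrix genes gave 3 higher of 16 and none lower, all collagens, on a median LFC of -0.07 for the list. Col22a1, a collagen of tissue junctions, ranged from 0.574 to 33.3 CPM across Ts (median 4.39), against 0 to 2.95 CPM across 2N (median 1.13), with 7 of 9 Ts libraries above all 2N libraries (LFC 2.56 ± 0.89, edgeR adjusted p = 1.0). Col4a1 and Col4a2, the paired type IV collagen chains of basement membranes, had LFCs of 0.42 ± 0.18 and 0.42 ± 0.20, and summed vascular markers ran from 17.7 to 33.3 CPM in Ts and 12.5 to 34.1 CPM in 2N, with 0 of 5 called. Omission of 1 mouse ended the call of Col4a1 for 4 of 16 (LFC 0.31 to 0.36 without them, the largest p without 2N mouse 1) and Col4a2 for 11 of 16 (LFC 0.32 to 0.41 without them, the largest p without 2N mouse 6). These lists were made with earlier results of these mice known and are no independent evidence of direction.

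Receptors and channels of the CA1 synapse differed in few members, where 2.14% of all genes tested were higher and 1.46% lower. None of 15 AMPA and kainate receptor genes, 6 NMDA receptor genes, 5 metabotropic glutamate receptor genes or 6 inward rectifier genes outside the stretches was a DEG, with medians between -0.06 and -0.003. The 2 DEGs of 19 GABA receptor genes were both lower, Gabra3, the α3 subunit of GABA-A receptors, with an LFC of -0.78 ± 0.33, and Kctd12, an auxiliary subunit of GABA-B receptors, with -0.22 ± 0.11. With the CA2 covariate Gabra3 had -0.83 ± 0.20 (edgeR adjusted p = 0.0540). Voltage-gated potassium channels gave 1 lower of 28, Kcna3 at -1.61 ± 0.54 on at most 3.68 CPM, and sodium, calcium and HCN channels gave 1 higher of 26. Release machinery gave 1 higher of 40, the calcium sensor Syt7 at 0.22 ± 0.10, and the calmodulin and CaM kinase list 1 higher of 17, the CaMKII inhibitor Camk2n1 at 0.37 ± 0.15. Calcineurin and NFAT genes other than Rcan1 and Dyrk1a gave 1 lower of 12, the anchoring protein Akap5 at -0.26 ± 0.10. The call was lost on omitting 1 mouse in Gabra3 for 5 of 16 (LFC -0.68 to -0.74 without them, the largest p without 2N mouse 6), Kctd12 for 8 of 16 (LFC -0.16 to -0.22 without them, the largest p without 2N mouse 5), Syt7 for 10 of 16 (LFC 0.16 to 0.22 without them, the largest p without 2N mouse 7) and Camk2n1 for 1 of 16 (LFC 0.27 without 2N mouse 7). Endocytosis genes outside the stretches (27), endosome and retromer genes (30) and App processing genes (23, among them Bace2, which lies in the Mmu16 stretch) held no DEG, and their median LFCs were 0.06, 0.07 and 0.04.

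Lists tied to choline showed 1 DEG each or none. For these and the further lists below, the shares over all genes tested were 2.14% higher and 1.46% lower. Of 19 choline uptake and phosphatidylcholine genes 1 was lower, Pcyt2, which serves the sister pathway of phosphatidylethanolamine, at -0.30 ± 0.13. Of 20 one-carbon genes 1 was lower, Mtrr, and of 17 DNA methylation genes none, the smallest p there being that of Gadd45a at 1.17 ± 0.66. Acetylcholine receptor and esterase genes gave 1 higher of 11, Bche, butyrylcholinesterase, which was listed at 0 CPM in most 2N libraries and reached at most 2.95 CPM in Ts. Interferon response genes outside the receptor cluster gave 1 higher of 14, the class I histocompatibility gene H2-D1 at 1.45 ± 0.60. Chaperones gave 2 higher of 26, Hspa1b at 0.88 ± 0.37 (it shares reads with its copy Hspa1a) and the mitochondrial chaperonin Hspd1 at 0.28 ± 0.13. Of 78 mitochondrial ribosomal genes 4 were higher, Mrps6 of the Mmu16 stretch with Mrpl41, Mrps33 and Mrpl35, and 1 lower, Mrpl4, on a median of -0.05. Of 84 cytosolic ribosomal genes 1 was lower, Rps2 at -0.39 ± 0.13, and of 78 nuclear respiratory chain genes, 36 proteasome genes and 7 mitochondrially encoded genes none was a DEG. Among 57 clustered protocadherins, adhesion molecules that give neurons individual identities and whose transcripts share exons, 1 was higher and 4 lower, with LFCs of the lower 4 from -0.91 (Pcdhb10) to -0.41 (Pcdhga10) and 0.81 ± 0.38 for the higher one, Pcdha7. Leaving out 1 mouse ended the call of Pcyt2 for 8 of 16 (LFC -0.26 to -0.29 without them, the largest p without Ts mouse 5), Bche for 5 of 16 (LFC 1.51 to 1.61 without them, the largest p without 2N mouse 7), H2-D1 for 3 of 16 (LFC 1.23 without 2N mouse 4 and 1.18 without 2N mouse 7 and 1.15 without Ts mouse 4), Hspa1b for 3 of 16 (LFC 0.75 without 2N mouse 5 and 0.79 without 2N mouse 6 and 0.62 without Ts mouse 9) and Hspd1 for 10 of 16 (LFC 0.19 to 0.28 without them, the largest p without 2N mouse 5). The same held for Mrpl41 for 2 of 16 (LFC 0.38 without 2N mouse 3 and 0.42 without Ts mouse 9), Mrps33 for 1 of 16 (LFC 0.48 without 2N mouse 7), Mrpl35 for 9 of 16 (LFC 0.54 to 0.72 without them, the largest p without 2N mouse 1), Mrpl4 for 1 of 16 (LFC -0.30 without 2N mouse 7), Pcdhga10 for 5 of 16 (LFC -0.34 to -0.40 without them, the largest p without 2N mouse 7), Pcdhga8 for 7 of 16 (LFC -0.33 to -0.51 without them, the largest p without 2N mouse 6) and Nfe2l2 for 2 of 16 (LFC -1.33 without 2N mouse 5 and -1.34 without 2N mouse 2). The antioxidant list gave 1 lower of 24, Nfe2l2 at no more than 3.68 CPM (LFC -1.49 ± 0.63).

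**Figure D5:**
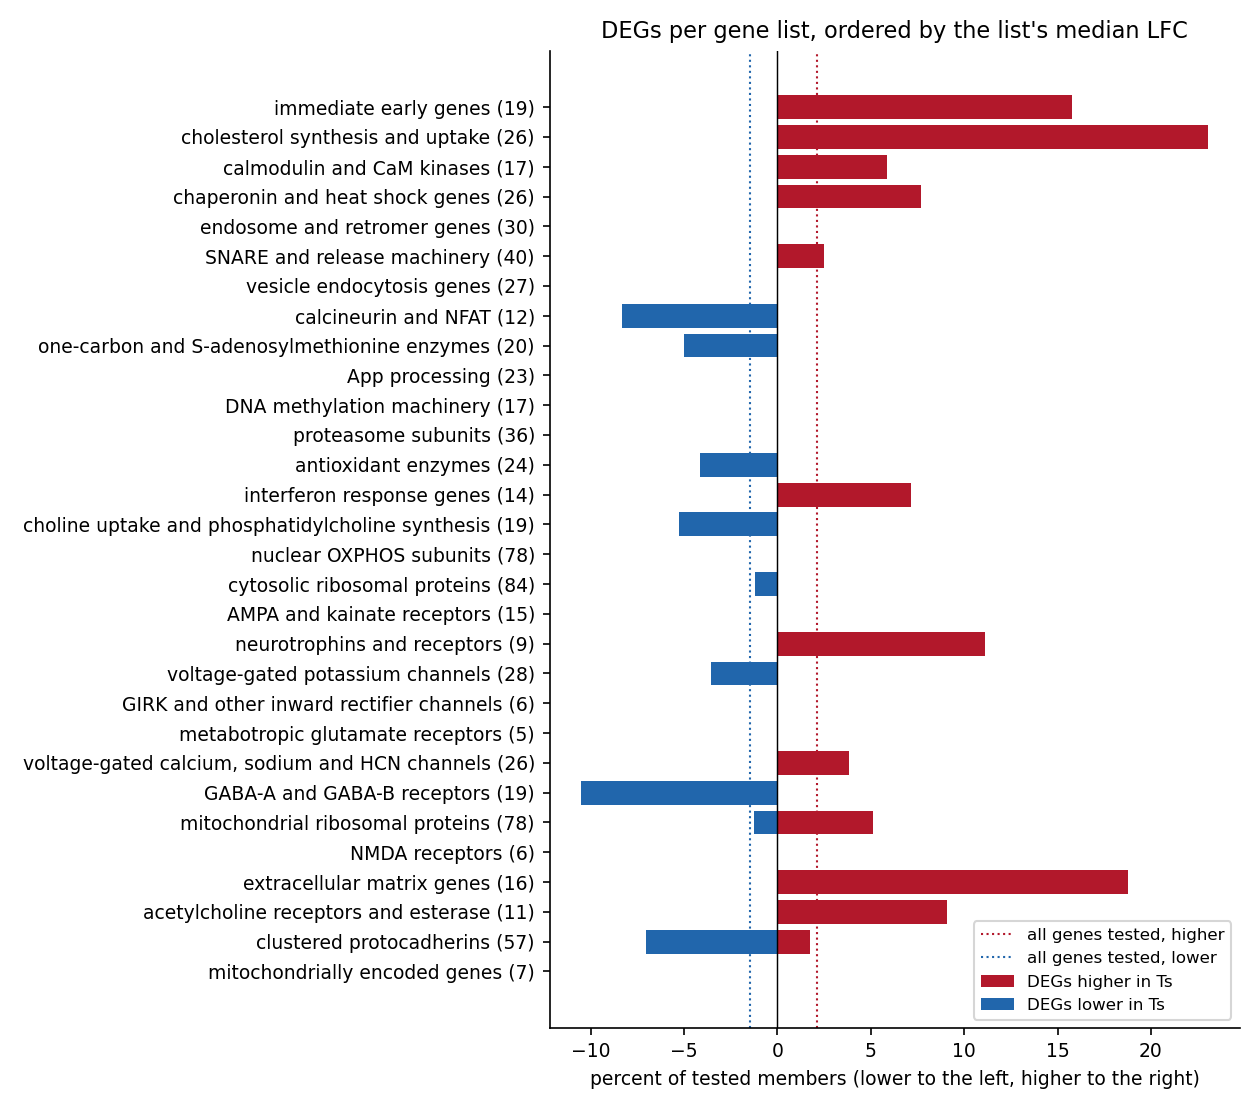
Percent of tested members of each functional gene list that were DEGs (x axis), higher in Ts to the right in red and lower to the left in blue, with the number tested in brackets, the lists ordered by median LFC (y axis) and dotted lines at the shares over all genes, 2.14% higher and 1.46% lower. Cholesterol genes reach 23.1%, extracellular matrix genes 18.8% and immediate early genes 15.8%, and 11 of 30 lists hold no DEG.

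Few markers of other cells that a laser cut could carry along were DEGs. Median LFCs were -0.33 for 7 microglia, -0.27 for 4 oligodendrocyte precursor and -0.17 for 8 inhibitory markers. They were -0.14 for 6 astrocyte, -0.14 for 5 vascular and 0.21 for 6 oligodendrocyte markers. Several of these genes stood at a few CPM, so few calls do not show equal levels. Of the inhibitory neuron markers 1 of 8 was higher (2.14% of all genes), Npy at 0.88 ± 0.41, and of the astrocyte markers 1 of 6 was lower (1.46% of all genes), Gja1. The call was lost on omitting 1 mouse in Npy for 7 of 16 (LFC 0.66 to 0.81 without them, the largest p without Ts mouse 4). Without covariates no marker of CA1, CA2, CA3, dentate granule cells, excitatory neurons, oligodendrocytes, their precursors, microglia, vessels or choroid plexus was a DEG. With the CA2 covariate 3 of 4 tested CA3 markers, Nectin3, Bok and Grik4, and 1 oligodendrocyte marker were higher at an unadjusted p under 0.05 (CA3 median LFC 0.83, against 0.60 without it), and with 1 surrogate variable, a covariate estimated from the counts, 3 of 4 CA3 markers were (1 after adjustment), while 1 of 4 was called with DESeq2, limma-voom, library totals or without the 2 mice low in CA1 markers. In the low-CA2 libraries the CA1 markers gave 2 higher and 1 lower of 6, of which 1 passed adjustment, 1 CA3 and 1 choroid plexus marker were higher and 1 oligodendrocyte precursor marker was lower. Their part in the calls made with those alternatives was not tested. Summed microglial markers ran from 29.7 to 41.9 CPM in Ts and from 30.8 to 54.0 CPM in 2N, against 5225 to 6163 CPM and 4806 to 6942 CPM for the excitatory neuron markers. Libraries high in CA2 markers also held more inhibitory, oligodendrocyte and precursor markers, with inhibitory sums of 259 to 385 CPM against 165 to 229 CPM in the other 9.

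The same genotype comparison in CA1 of normal-diet mice, which shares no mouse with the supplemented one, was set beside it. Its fit had no CA2 covariate, and field markers of the normal-diet libraries are not reported here. An alternative of the diet difference left out some normal-diet 2N libraries together with the supplemented libraries low in CA1 markers. On the normal diet 463 of 12286 tested genes were DEGs (3.77%), 219 higher (1.78%) and 244 lower (1.99%), and 1 (0.00814%) passed edgeR's adjustment, Col22a1 (LFC 3.44 ± 0.47). The labels of 1 normal-diet mouse conflict, with 2N for CA1 and dentate granule cells and Ts for CA3. Its CA1 library was kept as 2N. On that diet 27 of 62 tested Mmu16 genes and 9 of 20 Mmu17 genes were higher and none lower, with medians of 0.41 and 0.42 beside 0.47 and 0.48 on the supplemented diet, in 11 libraries against 16. Of 82 triplicated genes tested on both diets 76 lay above 0 on both. Outside the stretches 389 supplemented-diet DEGs were tested on both diets, and 246 (63.2%) had the same sign on the normal diet, where 52.3% of all 12167 outside genes did; 20 were DEGs with the same sign and 4 with the opposite one. Of the 688 outside genes called with the CA2 covariate and tested on both diets, 389 (56.5%) had the same sign, 22 being DEGs with the same sign and 10 with the opposite one, and the 8 that passed adjustment with it all had the same sign. The test of the difference between diets gave 523 genes of 16225 (3.22%) at an unadjusted p under 0.05 and none after adjustment in edgeR. App was the one gene of the study's triplicated lists among them, with LFCs of 0.62 ± 0.08 on the supplemented and 0.31 ± 0.13 on the normal diet (edgeR adjusted p = 1.0 for the difference). In the annotated Mmu17 stretch 1 unlisted gene had a higher and 1 a lower LFC on the supplemented diet at that threshold. Cholesterol genes had 0 DEGs of those tested on the normal diet with a median of 0.14, and Srebf2 had an LFC of 0.15 ± 0.11 there, a difference between diets of 0.11 ± 0.14 that did not pass (edgeR adjusted p = 1.0). Col4a1, Col4a2 and Col22a1 were higher on the normal diet as well, at 0.70 ± 0.22, 0.55 ± 0.22 and 3.44 ± 0.47. Of the outside genes named for the supplemented diet, Car4 (0.83 ± 0.36), Aopep (0.46 ± 0.17) and Rfx5 (-0.86 ± 0.37) were DEGs in the same direction on the normal diet, at an unadjusted p under 0.05, while Sp1 (0.02 ± 0.18) and Mtrr (-0.04 ± 0.26) were near 0.

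CA3 PNs and dentate granule cells (DGCs) of supplemented mice, captured from the sections of the same mice (14 of the 16 for CA3 and all 16 for DGCs), gave larger counts than the CA1 fit without covariates. In CA3 701 of 14041 genes were DEGs (4.99%) and 35 (0.249%) passed adjustment, and in DGCs 1076 of 14162 (7.60%) and 63 (0.445%). Mmu16 genes were higher in 49 of 67 tested in CA3 (2.67% of all genes) and 52 of 67 in DGCs (3.95%), with medians of 0.53 and 0.60, and 25 and 27 passed adjustment where 6 did in CA1. The CA1 count changed with the fit. It was 18 under the CA2 covariate, 17 in the low-CA2 and 0 in the high-CA2 libraries, and 14 without the mice low in CA1 markers. With 1 surrogate variable it was 19 and with DESeq2 12. The CA3 and DGC fits were not repeated in these ways, and the cause was not tested. A direct test between CA1 and each population found no gene after edgeR's adjustment, with 543 of 16937 (3.21%) at an unadjusted p under 0.05 for CA3 and 717 of 16966 (4.23%) for DGCs. The genes of the study's triplicated lists with an unadjusted p under 0.05 against CA3 were Il10rb, with the higher LFC in CA1, and Rwdd2b and Sft2d1, with the higher LFC in CA3. Against DGCs the smallest p of a gene on these lists was that of Synj2, with LFCs of 0.59 in CA1 and 2.23 in DGCs. App had LFCs of 0.62 in CA1, 0.47 in CA3 and 0.66 in DGCs, and Dyrk1a 0.46, 0.51 and 0.47. Among the outside genes Srebf2 was a DEG in all 3 populations (0.29, 0.18 and 0.25), and Car4 was one in CA1 (1.6) and not in CA3 (0.13) or DGCs (-0.37), where both differences from CA1 had an unadjusted p under 0.05 and neither passed adjustment (edgeR adjusted p = 1.0 and adjusted p = 0.639).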

How the data were processed

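Expected counts and TPM, a level per transcript length, per gene were made by the authors with RSEM after STAR alignment to GRCm39 and deposited for each library; RSEM divides reads shared between near-identical genes. The kit was strand-specific. Libraries were grouped by their labels. Here the deposited expected counts were rounded and tested with edgeR 4.0.16 in R 4.3.3 (TMM factors, robust quasi-likelihood fit, two-sided, BH adjustment), keeping a gene where 10 or more of the 16 libraries exceeded 0.1 CPM, the filter the study's methods describe; its covariates were not given in the sources used here for these libraries and were left out. The deposited TPM served only to rank genes by level. CPM are on the TMM scale. DESeq2 1.42.0, limma-voom 3.58.1, sva 3.50.0, other scalings and filters, and omission of each mouse were alternatives, and those built on CA2 markers were added after seeing the data. Symbols and coordinates follow GENCODE release M39 (GRCm39), matched for 56310 of 57010 identifiers. Marker libraries are called high above a CA2 mean of 5 log2 CPM. The sterol motif search used RefSeq promoter windows (GRCm38.p6). Members and gene lists were chosen with earlier results of these data known. Named genes were App, Dyrk1a, Rcan1, Sod1, Kcnj6, Pcp4, Synj1, Itsn1 and Tiam1, the 8 smallest and 3 largest p-values in each triplicated stretch, the 10 smallest in each direction outside, up to 4 DEGs of each list or its smallest p, and genes past adjustment in the CA2 alternatives. Values of 3 such genes are not reported here. The test was tried on simulated counts for 13895 genes, with the changed genes drawn only from those above a mean of 10 CPM. Among these, 1.5-fold changes were found at an unadjusted p under 0.05 for 77% and after adjustment for 28%. For 2-fold changes the shares were 90% and 65%. Of unchanged genes 4.4% had an unadjusted p under 0.05 and 9 passed adjustment. These shares do not cover changed genes of lower level.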

Additional observations from a re-analysis of the deposited data

Results flagged for a closer look

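Of 238 groups of libraries examined, 22 (9.24%) held a value farther from the rest of its group than Dixon's 95% critical value allows, where chance gives about 1 in 20. Most came from the 2 mice whose CA1 markers were low. In 2N mouse 5 the CA1 marker mean was 4.75 log2 CPM, Wfs1 stood at 45.4 CPM, Kcnj6 at 231 CPM, Itsn1 at 261 CPM, Mtrr at 7.37 CPM, Zmat4 at 11 CPM, Dach1 at 1.23 CPM and Kremen1 at 0 CPM. In Ts mouse 8 the CA1 marker mean was 2.51 log2 CPM, Wfs1 stood at 9.18 CPM, Zmat4 at 10.3 CPM, Kremen1 at 24.1 CPM, and the Mmu16 list took 0.861% of counts, the lowest share among Ts libraries.

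Other mice stood apart in fewer measures. In 2N mouse 3 Necab1 was at 63.5 CPM, Pcdhga10 at 10.3 CPM, Mrpl41 at 5.91 CPM and Psmb10 at 0 CPM, and in Ts mouse 6 Psmb10 was at 1.5 CPM. In 2N mouse 4 Gtf2h5 was at 24.8 CPM and Dok5 at 3.38 CPM. The mean of the Mmu17 list was 3.88 log2 CPM in 2N mouse 2, and mitochondrial genes took 12.2% of counts in Ts mouse 4.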

How the results depend on the processing

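The 515 DEGs became 1237 with no filter, 927 with 1 surrogate variable, 839 with the CA2 covariate and 913 in low-CA2 libraries. Leaving out 1 mouse gave 475 (Ts mouse 9) to 715 (2N mouse 5). The 7 adjusted calls became 18 with DESeq2, 16 with no filter, 35 with 1 surrogate variable, 11 with both diets in 1 fit, 34 with the CA2 covariate, 20 without Ts mouse 8 and 2N mouse 5, and 31 and 0 in libraries low and high in CA2 markers. Leaving out 1 mouse gave 6 to 17, with 17 without Ts mouse 8 and 12 without 2N mouse 5. Outside the stretches the count of 0 became 1 with DESeq2, 3 with no filter, 9 with 1 surrogate variable, 8 with the CA2 covariate, 1 without Ts mouse 8 and 2N mouse 5 and 8 in low-CA2 libraries, and leaving out 1 mouse gave 0 to 1, with 1 without 2N mouse 5, 2N mouse 7 or Ts mouse 9. Called Mmu16 genes (42) fell to 23 in the 7 high-CA2 libraries, were 44 in the 9 low-CA2 libraries, and stayed between 42 and 45 when 1 mouse was left out; called Mmu17 genes stayed between 12 and 15. On the normal diet the adjusted call was lost with limma-voom (0) and ran from 0 to 3 when 1 mouse was left out, with 3 without normal-diet 2N mouse 3, and DEGs ran from 323 (normal-diet Ts mouse 4) to 656 (normal-diet Ts mouse 1). The diet difference gave 294 genes with the stricter filter and 994 with none, the CA3 difference 266 and 1031, and the DGC difference 372 and 1163, where, for DGCs, 2, 2 and 1 genes passed adjustment with DESeq2, library totals and the stricter filter. Except for filters, the cause was not tested. Among 79 called genes, 2002 of 2265 values kept direction and call, 263 lost the call and 0 changed sign. Uncalled genes did change sign. With library total as a covariate the LFC was -1.22 for Pcp4, -0.027 for Tiam1, 0.49 for Lca5l, -0.63 for Grik1, -0.50 for Tiam2 and 0.033 for Grin3a. With library totals for scaling it was -0.0145 for Grik1 and -0.048 for Rsph3b, which also had -0.016 with DESeq2 and -0.0137 with its size factors. Without Ts mouse 8 and 2N mouse 5, Lca5l had 0.0175 and Rsph3b -0.27. In low-CA2 libraries Lca5l had 0.55, Sft2d1 -0.0745, Rsph3b -0.48 and Kcnj2 -0.058, and in high-CA2 libraries Tiam1 had -0.093, Grik1 -0.23, Lhfpl3 0.022, Pecam1 0.18 and Per1 -0.31. Leaving out 1 mouse took Pcp4 from -0.46 to 0.70, Tiam1 from -0.0157 to 0.36, Lca5l from -0.37 to 0.27, Grik1 from -0.18 to 0.28, Rsph3b from -0.26 to 0.42 and Rgs14 from -0.72 to 0.094. With mouse as a block (limma-voom), the CA3 and DGC differences gave 677 and 798 genes and 0 after adjustment. For genotype, no paired analysis was possible because each mouse gave 1 CA1 library and the labels pair no Ts mouse with a 2N mouse. Depth limits genes of a few CPM, where a few reads can decide whether libraries overlap.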
